A study of Mus musculus with 23 samples.

Results

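Pregnancy was compared with the virgin state in the cells labelled mammary epithelial stem cells, on 7 of the 23 Affymetrix arrays of the series. The members were chosen by their labels alone: 3 arrays of pregnant mice, namely 2 of day 10 and 1 of day 16, against 4 arrays of virgin mice, namely 2 of 3 weeks and 2 of 9 weeks of age. All mice were C57BL/6 females, an inbred strain, kept in 1 animal facility, and the ages of the pregnant mice are not in the labels. Glands were digested, cell types were purified, and mRNA was turned into biotin-labelled cRNA. The labels name no surface markers or gates, and do not say whether the 2 arrays of a group came from separate animals, so the p-values measure only the spread between arrays, which may be technical. Day 16 has a single stem array, which was assumed to vary like the groups of 2. Each gene was read from 1 probe set, the one with the highest mean over all 23 arrays, and 15379 genes were kept. A gene was called when its adjusted p was below 0.05 and its difference had the same sign against both virgin ages.

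The mammary epithelium has an inner luminal layer, which makes milk, and an outer basal layer, which contracts and in which transplantable stem cells are found. During pregnancy progesterone and prolactin drive side branching and the growth of alveoli. Prolactin acts through its receptor, the kinase JAK2 and the transcription factor STAT5, which switches on milk protein genes. Type I interferons switch on antiviral genes through a short element in the promoters of those genes.

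The labelled cell type was checked against its markers. The mean of 25 basal and myoepithelial genes lay between 9.44 and 11.53 (log2) on the 7 stem arrays, against 7.28 to 9.89 on the luminal progenitor arrays and 7.10 to 8.74 on the mature luminal arrays of the same stages. Krt14, a basal keratin, was between 12.13 and 13.41 on every stem array, and Trp63, a basal transcription factor, between 10.43 and 12.23. Neither gene alone set the stem arrays apart, since Krt14 was 12.88 and Trp63 11.54 on mature luminal replicate 1 of 9 weeks. The luminal keratins Krt8, between 12.68 and 13.55, and Krt18, between 12.19 and 13.71, were also high on the stem arrays. The virgin stem arrays carried endothelial markers as well. Pecam1, the adhesion molecule that defines endothelium, was between 8.43 and 10.23 on the 4 virgin stem arrays, against 4.03 to 6.55 on the 12 luminal arrays of the same stages. Array medians of the 7 stem arrays lay between 4.77 and 5.34. Pearson's r between arrays that share a group was 0.876 to 0.908. The 3′ minus 5′ signal of Gapdh, a measure of RNA integrity, was 1.28 to 1.43 in pregnant and 1.30 to 2.11 in virgin stem arrays.

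In all, 626 of 15379 genes (4.07%) were called between pregnant and virgin stem cells. Of these, 212 (1.38%) were higher in pregnancy and 414 (2.69%) were lower. The median difference was 2.46 on the log2 scale among the higher genes and -3.01 among the lower ones, and 0.11 over all genes. In bulk preparations of cells such as these, fewer cells of a type and less RNA per cell cannot be told apart. With every array centred on a common median, the median of all genes was 0.27 and the split was 293 higher and 322 lower. An unadjusted p below 0.05 was found for 3071 genes. The 3 pregnant arrays lay outside the range of the 4 virgin arrays for 205 of the 212 higher and 379 of the 414 lower genes, against 17.6% of all genes in either direction, 10.2% higher and 7.39% lower. The calls were made on these same arrays, so this separation is a description and adds no support to them.

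The number of calls rested on single arrays. It was 161 without 3-week replicate 2, 185 without 3-week replicate 1, 261 without the day 16 array, 318 without day 10 replicate 1 and 376 without day 10 replicate 2. It was higher without a 9-week array, at 859 without replicate 2 and 935 without replicate 1. Of the 626 genes, 13 higher and 113 lower ones were called whichever of the 7 arrays was left out. Where a left-out array is named for a gene below, it gave that gene's highest adjusted p. Leaving out other arrays could also lose the call. The replicate numbers in the titles were shared between groups and marked a common deviation. With the number as a block, and the unnumbered arrays placed with replicate 2, 2113 genes were called, among them all 626. On the numbered arrays alone, 1306 genes were called with the block, of which 591 were among the 626.

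**Figure D1:**
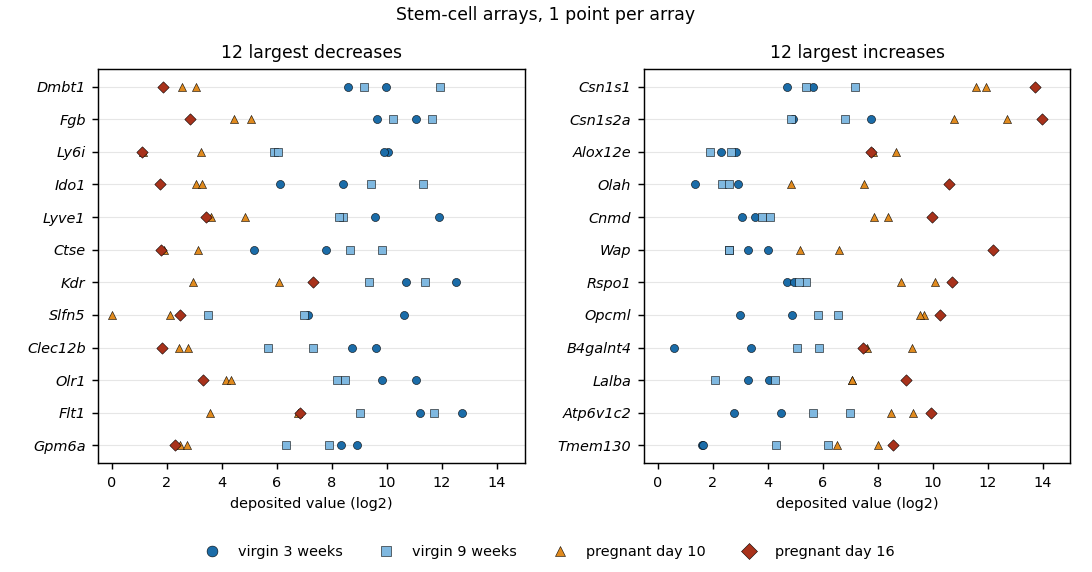
Deposited log2 values (horizontal axis) of the 12 genes with the largest decrease (left) and the 12 with the largest increase (right) among the called genes whose pregnant and virgin arrays do not overlap, with 1 point per stem array. For each gene the 3 pregnant arrays, triangles and diamonds, lie together on one side of the 4 virgin arrays, circles and squares.

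Milk protein genes were among the largest increases. Csn1s1 encodes alpha-s1 casein, a major milk protein. It was 11.59 and 11.94 on the day 10 arrays and 13.72 on day 16, against 5.66 and 4.72 at 3 weeks and 5.39 and 7.16 at 9 weeks. The groups did not overlap, and the difference was 6.68 ± 0.92 (log2, SE, adjusted p = 0.00352). Csn1s2a, another casein, was 10.76, 12.70 and 13.98 in pregnancy and between 4.84 and 7.77 in virgins, a difference of 6.39 ± 1.48 (adjusted p = 0.035). One of its 3 other probe sets gave -0.06 and another 6.83. Wap, whey acidic protein, was 6.59 and 5.17 on day 10 and 12.19 on day 16. Its virgin arrays were all lower, with the 9-week ones both at 2.58. Its difference was 4.87 ± 0.64 (adjusted p = 0.00266). Lalba, the regulatory subunit of lactose synthase, was 7.08 on both day 10 arrays and 9.02 on day 16, against 2.09 to 4.26 in virgins (4.31 ± 0.99, adjusted p = 0.0346).

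The day 16 array was the highest of the 7 for each of these 4 genes. Without it the adjusted p of Wap was 0.0904, of Lalba 0.14 and of Csn1s2a 0.129, while Csn1s1 was called whichever array was left out. Of the 7 fits that each left out 1 array, Wap was called in 6, and Lalba and Csn1s2a in 1 each. Many low values lie below the median of their array, and raising all of them to that median gave 2.94 for Wap and 2.68 for Lalba, both still called, and 6.53 for Csn1s1. Day 16 minus day 10 was 6.31 ± 1.03 for Wap (adjusted p = 0.429), and 0 genes passed that comparison, with 575 at an unadjusted p below 0.05.

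Csn2, beta-casein, had a difference of 6.84 ± 1.97 and was not called (adjusted p = 0.0763). Its pregnant arrays were at 12.17, 12.95 and 13.69. The virgin arrays were at 5.53, 7.47, 2.07 and 9.33, so the groups were apart but the virgin values were spread widely, with both replicate 2 arrays above both replicate 1 arrays. With the replicate block its adjusted p was 0.00646 (range over all alternatives 0.00646 to 0.291). Csn3, kappa-casein, was between 12.06 and 12.72 in virgins already and between 12.35 and 13.36 in pregnancy. Its difference of 0.43 ± 0.22 was not called. Of the 17 milk protein genes kept, 4 were called higher and 0 lower, and 16 differences were above 0, with a median of 2.24. That count was 1 without day 16, and 2 without day 10 replicate 1, day 10 replicate 2 or either 3-week array. The list mean was 9.14 and 9.60 on day 10, 11.27 on day 16, and 7.39 to 7.60 on the virgin arrays.

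The promoters of Csn1s1 and Csn2 are shown because both hold the spaced palindrome TTCNNNGAA, the type of element STAT5 binds. The 150 bases before the start of each gene are given 5′ to 3′ on the gene's strand, from RefSeq with build GRCm38.p6, with the match in capitals. The Csn1s1 window is chr5:87666058-87666207 on the plus strand, and its match starts 100 bases before the gene. The Csn2 window is chr5:87699426-87699575 on the minus strand, and its match starts 93 bases before the gene.
Csn1s1: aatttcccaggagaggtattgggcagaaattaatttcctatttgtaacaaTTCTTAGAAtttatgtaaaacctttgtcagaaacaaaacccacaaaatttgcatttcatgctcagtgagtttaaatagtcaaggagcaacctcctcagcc
Csn2: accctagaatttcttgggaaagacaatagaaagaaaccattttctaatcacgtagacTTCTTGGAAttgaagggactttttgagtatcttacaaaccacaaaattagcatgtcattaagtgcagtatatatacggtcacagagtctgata
The element was searched on both strands of the 250 bases before each start. It was present in 3 of the 11 milk protein genes with a promoter in the table, which are Csn1s1, Csn2 and Glycam1, and in 8.1% of all 27025 genes there. Among the genes called higher it was present in 9 of 166 (5.4%). No match was found in the windows of Csn1s2a, Wap and Lalba, which says only that these letters are not there.

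In the list of 21 fatty acid and triglyceride genes 3 were called higher and 0 lower, 5 differences were below 0 and the median was 0.56. Olah, one of the 3, encodes the thioesterase that releases medium-chain fatty acids from fatty acid synthase. It was 4.85, 7.52 and 10.58 on the day 10 and day 16 arrays, against 1.37 to 2.92 in virgins (5.34 ± 1.01, adjusted p = 0.0148). Without the day 16 array its adjusted p was 0.127, and with low values raised its difference was 2.61 (adjusted p = 0.0908). Acaca, acetyl-CoA carboxylase, was between 9.80 and 10.79 in pregnancy and between 7.48 and 8.16 in virgins (2.44 ± 0.48, adjusted p = 0.0181), and its other probe set gave 0.65. Fasn, fatty acid synthase itself, was between 10.87 and 11.77 against 8.95 to 10.33 (2.0 ± 0.45, adjusted p = 0.0305). The adjusted p of Acaca was 0.0737 without the day 16 array, and that of Fasn 0.116 without 3-week replicate 2. Each of the 3 missed the call without at least 1 of the 7 arrays. In the cholesterol synthesis list 1 of 15 genes was called, Stard4, a sterol carrier, which fell by 2.25 ± 0.57 (adjusted p = 0.0497, and 0.222 without 3-week replicate 2), and by 0.94 on one of its 2 other probe sets.

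**Figure D2:**
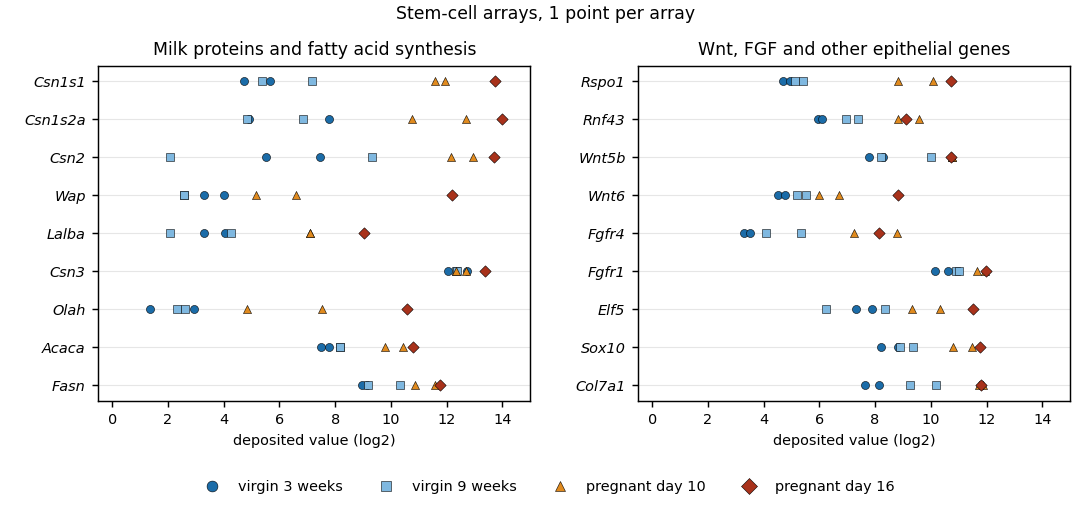
Deposited log2 values (horizontal axis) of milk protein and fatty acid synthesis genes (left) and of Wnt, FGF and other epithelial genes (right), with 1 point per stem array. Csn1s1, Wap and Olah are highest on the day 16 array, Csn3 overlaps between the groups, and the 3 pregnant arrays of Rspo1, between 8.84 and 10.72, lie above virgin arrays of at most 5.41.

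R-spondin 1 rose in every pregnant stem array. R-spondins raise Wnt signalling by binding LGR receptors and removing the ubiquitin ligases RNF43 and ZNRF3 from the cell surface. Rspo1 was 8.84, 10.08 and 10.72 in pregnancy, against 4.69 and 4.96 at 3 weeks and 5.41 and 5.13 at 9 weeks. The difference was 4.83 ± 0.59 (adjusted p = 0.00207), and 4.61 against the 9-week arrays alone (adjusted p = 0.0261). Rnf43, itself a target of Wnt signalling, was 9.58, 8.84 and 9.12 against 5.95 to 7.38 (2.58 ± 0.42, adjusted p = 0.00764). Rspo1 and Rnf43 were called whichever array was left out.

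Of the 33 genes of the Wnt and R-spondin list, 4 were called higher and 1 lower, with a median of 0.68 and 27 differences above 0. The other 2 higher members were the ligands Wnt5b (2.17 ± 0.43, adjusted p = 0.0177) and Wnt6 (2.16 ± 0.44, adjusted p = 0.0215). The lower member was Procr, a target of Wnt signalling described among the stem cell genes. The adjusted p of Wnt5b was 0.0896 without 3-week replicate 2, and that of Wnt6 0.229 without day 16. Without either 3-week array the count of higher members was 2. Axin2, a common readout of Wnt signalling, was between 7.56 and 8.47 in pregnancy and between 5.98 and 8.03 in virgins (1.24 ± 0.62, adjusted p = 0.288). Lgr5, an R-spondin receptor, was 0.00 and 7.84 at 3 weeks and 1.73 and 9.72 at 9 weeks, so that both replicate 2 arrays were high and both replicate 1 arrays low. Its pregnant arrays lay between 5.56 and 7.69, and it was not called.

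Receptors of fibroblast growth factors moved unequally. Fgfr4 was 8.79, 7.24 and 8.15 in pregnancy against 3.28 to 5.34 in virgins, a difference of 4.01 ± 0.61 (adjusted p = 0.00544) that was called whichever array was left out. Its 2 other probe sets gave 1.07 and 2.45. Fgfr1 was between 11.67 and 11.99 against 10.15 to 11.02 (1.20 ± 0.27, adjusted p = 0.0338), and its other probe sets gave 0.13 and 1.39. Without 3-week replicate 2 its adjusted p was 0.141. They were the called members of 12 FGF signalling genes, whose median was -0.02. Igf1r, a receptor of insulin-like growth factors, was not called (-0.69 ± 0.67), nor was any of the 13 genes of the IGF list.

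Several other large increases have less familiar roles in the gland. Alox12e, an epidermal lipoxygenase, was 8.66, 7.83 and 7.76 in pregnancy and at most 2.85 in virgins (5.66 ± 0.49, adjusted p = 0.000452). Cnmd, chondromodulin, a cartilage glycoprotein that inhibits vessel growth, was 7.88, 8.37 and 9.97 against at most 4.10 (5.11 ± 0.62, adjusted p = 0.00207). Opcml, an adhesion molecule of the immunoglobulin family, was between 9.55 and 10.27 against 3.00 to 6.55 (4.78 ± 0.79, adjusted p = 0.00819). The remaining 3 of the 12 largest increases were B4galnt4, a glycosyltransferase (4.38), Atp6v1c2, a proton pump subunit (4.26), and Tmem130 (4.25). Without 3-week replicate 2 their adjusted p were 0.0706, 0.0589 and 0.0577, while Alox12e, Cnmd and Opcml were called whichever array was left out. The virgin values of Alox12e lie below the array medians, and with low values raised its difference was 3.04 (adjusted p = 0.00163). Those of B4galnt4 and Tmem130 were 2.80 and 2.40 in that setting, both called, and the other probe set of Opcml gave 2.0.

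Transcription factors and structural genes of the epithelium gave single calls. Elf5, which specifies alveolar cells and cooperates with STAT5, was 9.34, 10.34 and 11.53 in pregnancy and between 6.24 and 8.37 in virgins. Its difference was 2.95 ± 0.73 (adjusted p = 0.0447), and 0.185 was its adjusted p without the day 16 array. Elf5 was called in 1 of the 7 fits that each left out 1 array. Sox10, a neural crest factor that also marks mammary stem and progenitor cells, was between 10.78 and 11.77 against 8.23 to 9.36 (2.52 ± 0.57, adjusted p = 0.0305). It was the called member of 5 Schwann cell markers, and the other 4 differences were below 0. Col7a1, the anchoring fibril collagen, was between 11.72 and 11.86 in pregnancy and was 8.15 and 7.63 at 3 weeks and 9.27 and 10.17 at 9 weeks (2.98 ± 0.62, adjusted p = 0.0226). Without 3-week replicate 2 the adjusted p of Sox10 was 0.114 and that of Col7a1 0.11.

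Basal identity genes were not called. Of the 25 basal and myoepithelial genes, 0 passed, 22 differences were above 0 and the median was 0.96. Krt5, a basal keratin, differed by 1.14 ± 0.97, Krt14 by 0.66 ± 0.52, Trp63 by 0.65 ± 0.90 and Acta2, smooth muscle actin, by 0.51 ± 0.51. The 2 other probe sets of Krt14 gave 1.28 and 2.85, and the 2 others of Acta2 gave 0.59 and 3.23. Oxtr, the oxytocin receptor of contracting cells, was between 3.05 and 11.87 in virgins and between 8.76 and 12.31 in pregnancy, and was not called. The basal list mean was 10.84 to 11.53 in pregnancy, 9.44 and 10.05 at 3 weeks, and 9.89 and 11.17 at 9 weeks. It therefore overlapped between pregnant and 9-week arrays and not between pregnant and 3-week arrays.

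On the deposited values the largest decrease was in Dmbt1, a secreted scavenger-receptor protein of epithelial surfaces. It was 3.07, 2.56 and 1.86 in pregnancy, against 9.96 and 8.58 at 3 weeks and 11.91 and 9.15 at 9 weeks. The difference was -7.40 ± 0.88 (adjusted p = 0.00207). Fgb, the beta chain of fibrinogen, was 4.45, 5.07 and 2.82 against 9.62 to 11.65 (-6.52 ± 0.54, adjusted p = 0.000452). Ido1, which degrades tryptophan, was 3.05, 3.26 and 1.75 against 6.09 to 11.32 (-6.13 ± 0.67, adjusted p = 0.00155). Ctse, the aspartic protease cathepsin E, was 1.90, 3.11 and 1.79 against 5.16 to 9.80 (-5.58 ± 0.69, adjusted p = 0.00207), although its other probe set gave 2.08. In all 4 genes the groups were apart on every array, which the rule for the largest decreases required. Each was called whichever array was left out. Each also passed against the 9-week arrays alone, with differences between -8.03 and -6.82. Most of the pregnant values lie below the array medians. With low values raised the differences were -5.01 for Dmbt1, -5.69 for Fgb, -3.92 for Ido1 and -3.00 for Ctse, all 4 called, and Dmbt1 was no longer the largest.

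These 4 genes fell in the luminal cells as well. In mature luminal cells Dmbt1 differed by -10.12, Fgb by -7.64, Ido1 by -7.87 and Ctse by -6.49 between pregnancy and virgins, each with the same stages weighted equally. In luminal progenitors the values were -8.44, -7.47, -7.00 and -4.82. All 8 passed, with adjusted p of at most 0.0176. Fgg, the gamma chain of fibrinogen, is read beside its partner. It fell by 1.49 ± 0.37 in stem cells (adjusted p = 0.0471, and 0.142 without day 16), by 5.86 in mature luminal cells and by 4.54 in luminal progenitors. In stem cells Fgg was called in 0 of the 7 fits that each left out 1 array.

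Of 12 hormone receptor and hormone-sensing genes, 2 were called lower and 0 higher, 3 differences were above 0 and the median was -0.59. Esr1, the estrogen receptor, was 7.83, 7.92 and 6.93 in pregnancy against 9.79 to 10.53 in virgins (-2.64 ± 0.41, adjusted p = 0.00558), and was called whichever array was left out. Foxa1, which opens chromatin for the estrogen receptor, was between 6.42 and 8.17 against 8.79 to 10.41 (-2.05 ± 0.37, adjusted p = 0.0119), with an adjusted p of 0.0999 without the day 16 array. Pgr, the progesterone receptor, was 4.64, 8.25 and 9.35 against 9.86 to 10.77, and narrowly missed the call (-2.73 ± 0.72, adjusted p = 0.0562). With the replicate block its adjusted p was 0.0143 (range over all alternatives 0.0095 to 0.764). The 2 other probe sets of Pgr gave -1.26 and -0.59. Jak2, the kinase below the prolactin receptor, fell by 1.62 ± 0.24 (adjusted p = 0.00479). It and Elf5 were the called members of 11 genes of prolactin signalling, whose median was 0.20. The hormone receptor and hormone-sensing list fell in the luminal cells as well. There 5 of its 12 genes were called lower in mature luminal cells (median -2.89) and 4 in luminal progenitors (median -1.03).

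Endothelial genes fell together. Of 13 endothelial markers 12 were called lower, all 13 differences were below 0, and the median was -2.99. Kdr, a receptor of vascular endothelial growth factor, was 2.93, 6.07 and 7.29 in pregnancy, against 10.70 and 12.52 at 3 weeks and 9.33 and 11.38 at 9 weeks (-5.55 ± 0.84, adjusted p = 0.00506). Pecam1 was 4.44, 4.91 and 5.37 against 10.17 and 10.23 at 3 weeks and 8.43 and 8.50 at 9 weeks (-4.43 ± 0.53, adjusted p = 0.00207). Cdh5, the cadherin of endothelial junctions, differed by -5.18 ± 0.99, and its other probe set by -0.52. Emcn (-4.87), Tek (-4.07), Tie1 (-3.64), Plvap (-2.99), Egfl7 (-2.99), Sox17 (-2.89), Esam (-2.66), Eng (-2.63) and Vwf (-2.58) made up the rest of the 12. Cldn5, a tight junction protein, was not called (-2.46 ± 0.84), and its 9-week replicate 2 array, at 8.49, lay among the pregnant ones. The 4 virgin arrays lay above the 3 pregnant arrays for the 12 called markers, and for 7.39% of all genes. The calls were made on these same arrays.

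The endothelial list mean ordered the arrays by stage. It was 11.01 and 11.41 at 3 weeks, 9.76 and 9.24 at 9 weeks, 6.53 and 6.65 on day 10 and 7.06 on day 16. Mature luminal arrays of the same stages lay between 5.09 and 8.13 and luminal progenitor arrays between 5.60 and 7.95. Pregnant stem arrays were thus within the range of the luminal arrays, and the virgin stem arrays were above it. The median difference of the list was -4.08 against the 3-week arrays and -2.10 against the 9-week arrays, and 0 of the 13 passed against the 9-week arrays alone. The count of 12 was 5 without 3-week replicate 2 and 6 without 3-week replicate 1.

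**Figure D3:**
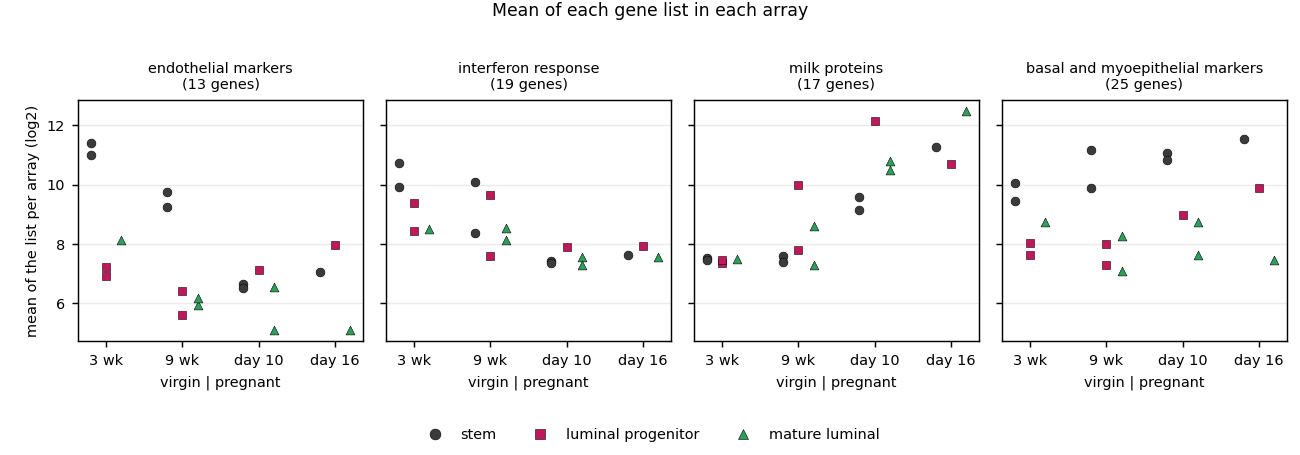
Mean log2 value of 4 gene lists (vertical axis) on each array by stage (horizontal axis) and cell type, with 1 point per array. The endothelial mean of stem arrays is 11.01 and 11.41 at 3 weeks and 6.53 to 7.06 in pregnancy, the interferon mean of the pregnant stem arrays is 7.35 to 7.62, and the milk protein mean is 9.14 to 11.27 in pregnant stem arrays.

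Several of the 12 largest decreases belong to vessels. Flt1, another receptor of vascular endothelial growth factor, differed by -5.44 ± 0.83 (adjusted p = 0.00532) and Lyve1, the hyaluronan receptor of lymphatic vessels, by -5.59 ± 0.61 (adjusted p = 0.00155). Lyve1 was at most 4.83 in pregnancy, 11.89 and 9.57 at 3 weeks, and 8.39 and 8.27 at 9 weeks. Olr1, a receptor of oxidised lipoprotein, was between 3.32 and 4.32 against 8.19 to 11.04 (-5.45 ± 0.53, adjusted p = 0.000757). Clec12b, a C-type lectin (-5.47), Gpm6a, a membrane glycoprotein (-5.37), Ly6i, a surface protein of the Ly6 family (-6.14), and Slfn5, a schlafen protein (-5.52), completed the 12. Slfn5 was not called without 3-week replicate 2 (adjusted p = 0.0998) or with low values raised (-2.48, adjusted p = 0.0515), and the other 6 of these 7 were called whichever array was left out. With low values raised the differences of Ly6i, Gpm6a and Clec12b were -3.07, -2.98 and -2.93, all 3 called. Other probe sets gave -3.56 for Flt1 and -1.87 for Slfn5 at the smallest. The part of the endothelial signal in these values was not tested.

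A few members of other lists were called lower. In the Notch list these were 3 of 18 genes, with 0 called higher, 5 differences above 0 and a median of -0.46. They were the ligand Dll4 (-3.05 ± 0.54), the receptor Notch4 (-2.71 ± 0.55) and the glycosyltransferase Mfng (-2.87 ± 0.55). Dll4 and Notch4 are best known from endothelium. Among 22 genes associated with mammary stem cells 4 were called lower and Sox10 higher, 7 differences were above 0 and the median was -0.32. Procr, the protein C receptor, marks multipotent mammary cells and is also abundant in endothelium. It was 10.15, 9.99 and 8.27 in pregnancy, 13.03 and 12.68 at 3 weeks and 12.34 and 10.82 at 9 weeks (-2.75 ± 0.63, adjusted p = 0.0338). The other 3 were the transcription factors Zeb1 (-3.17 ± 0.47) and Zeb2 (-3.24 ± 0.56), and Inpp5d, an inositol phosphatase of blood and stem cells (-3.97 ± 0.88), whose other probe set gave 0.36. Zeb1 and Zeb2 were called whichever array was left out. The adjusted p of Procr was 0.166 without day 16 and that of Inpp5d 0.112 without 3-week replicate 1. Without 3-week replicate 2 those of Dll4, Notch4 and Mfng were 0.0592, 0.0999 and 0.0848. Nid2, a basement membrane linker, fell by 3.66 ± 0.57. It was the 1 gene called lower of 23 basement membrane genes, and Col7a1 was the 1 called higher. Of that list 17 differences were above 0 and the median was 0.55. Its mean was 10.74 to 10.97 on the pregnant and 10.05 to 10.46 on the virgin stem arrays. Fabp4, a fatty acid carrier of fat cells and capillaries (-1.81 ± 0.41), and Pparg, the fat cell regulator (-3.94 ± 0.83), were the called members of 5 adipocyte markers, with adjusted p of 0.12 and 0.095 without 3-week replicate 2. The other 3 adipocyte differences were above 0, and the median of the 5 was 0.52. With low values raised Mfng was -1.35 and Pparg -2.61, both called, and 1 of the 4 other probe sets of Zeb2 gave -0.55. The part of the endothelial signal in each of these was not tested.

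Markers of other cell types were not called. None of 12 fibroblast and stromal markers, 8 pericyte markers, 14 leukocyte markers and 4 erythroid markers passed. The medians of their differences were -0.74, -0.22, 0.41 and -0.56. The leukocyte list mean was 5.58 to 7.33 in pregnant and 5.43 to 7.48 in virgin stem arrays, so the groups overlapped.

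Interferon response genes were the second large group of decreases. Of 19 genes 9 were called lower, all 19 differences were below 0, and the median was -2.26. Ifit1, an antiviral protein that binds foreign RNA, was 6.94, 6.02 and 5.51 in pregnancy, against 11.22 on both 3-week arrays and 10.79 and 9.25 at 9 weeks (-4.46 ± 0.94, adjusted p = 0.0233). Ifit3 of the same family was 6.91, 5.41 and 5.70 against 8.18 to 11.64 (-4.05 ± 0.73, adjusted p = 0.0118). Usp18, which removes ISG15 from proteins and restrains interferon signalling, was between 5.02 and 5.80 against 7.80 to 10.83 (-4.30 ± 0.79, adjusted p = 0.0124). Rsad2, or viperin, differed by -4.17, Ifit2 by -3.16, Oasl2 by -2.88, Stat2 by -2.40, Gbp2 by -2.26 and the RNA sensor Ifih1 by -1.90. The pregnant arrays lay below the virgin arrays for these 9, which were called on the same arrays, and for 7.39% of all genes. The other probe set of Stat2 gave -1.49.

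The list mean was 7.35 and 7.44 on day 10 and 7.62 on day 16, against 10.74 and 9.93 at 3 weeks and 10.10 and 8.37 at 9 weeks. At each virgin age the array titled replicate 1 was the higher. The number of members called lower was 0 without 3-week replicate 1, 2 without day 10 replicate 1, 3 without 3-week replicate 2 and 5 without day 10 replicate 2. With the replicate block it was 11. Against the 9-week arrays alone 0 members passed, with a median of -1.66. In mature luminal cells 1 member was called lower and the median was -1.15. In luminal progenitors 0 were called and the median was -0.45. The endothelial list moved with these genes in the same stem arrays, and its part in them was not tested.

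**Figure D4:**
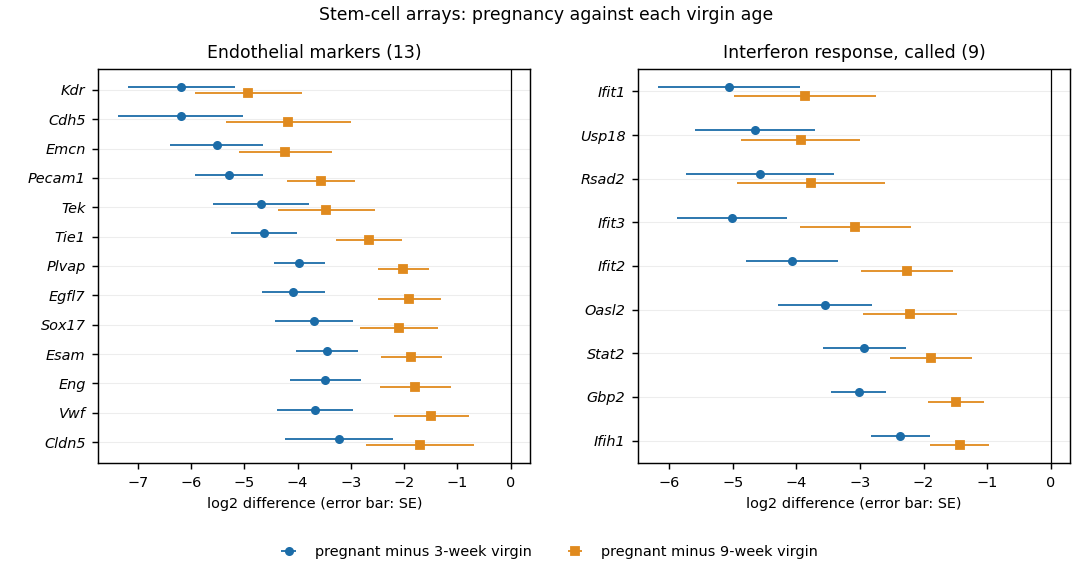
Log2 difference of pregnant stem arrays from the 3-week (circles) and the 9-week (squares) virgin stem arrays on the horizontal axis, for 13 endothelial markers (left) and the 9 interferon response genes called lower (right), with bars of 1 standard error from the model. Both comparisons share the 3 pregnant arrays. Each difference is below 0, and those against the 3-week arrays are the larger.

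The promoters of 4 of these 9 genes are shown because they hold the repeat TTTC, any 2 bases, TTTC, which is the core of the interferon-stimulated response element. They are the 150 bases before each start, 5′ to 3′ on the gene's strand, from RefSeq with build GRCm38.p6, with matches in capitals. The windows are chr19:34640739-34640888 on the plus strand for Ifit1, chr19:34583379-34583528 on the plus strand for Ifit3, chr12:26456453-26456602 on the minus strand for Rsad2, and chr3:142620513-142620662 on the plus strand for Gbp2.
Ifit1: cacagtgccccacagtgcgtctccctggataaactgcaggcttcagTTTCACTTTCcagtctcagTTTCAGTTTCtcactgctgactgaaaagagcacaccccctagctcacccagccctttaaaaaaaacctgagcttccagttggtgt
Ifit3: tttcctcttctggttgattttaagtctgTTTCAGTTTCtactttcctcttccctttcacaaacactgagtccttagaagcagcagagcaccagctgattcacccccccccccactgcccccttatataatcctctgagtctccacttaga
Rsad2: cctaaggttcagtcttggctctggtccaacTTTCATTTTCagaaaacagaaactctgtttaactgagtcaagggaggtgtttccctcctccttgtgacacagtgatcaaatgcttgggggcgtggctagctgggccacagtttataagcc
Gbp2: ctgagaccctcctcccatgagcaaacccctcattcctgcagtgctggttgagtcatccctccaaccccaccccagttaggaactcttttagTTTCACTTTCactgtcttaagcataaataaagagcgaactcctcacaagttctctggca
On both strands of the 250 bases before the start, the repeat was present in 8 of the 18 interferon response genes with a promoter in the table, and in 3.5% of all 27025 genes there. Of the 9 called genes 8 had a promoter, and 5 of these held a match, the fifth being Stat2. Among all genes called lower the share was 30 of 305 (9.8%), and among those called higher 6 of 166 (3.6%). The last letters of this repeat, TTC, can begin the other motif, and the 2 motifs were counted separately.

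Lists of defence, growth and transport genes gave 1 or 2 calls each, where 4.07% of all genes were called. In the list of milk defence and secreted immunity, 2 of 15 were called lower, Dmbt1 and the chemokine Cxcl1 (-1.48 ± 0.32, adjusted p = 0.0251). Of that list 8 differences were above 0 and the median was 0.29. Prom1, a membrane protein of luminal cells, was 7.95, 7.16 and 5.73 against 9.55 to 11.73 (-3.71 ± 0.64, adjusted p = 0.00934). It was the 1 gene called lower of 19 luminal keratin and identity genes, and Elf5 was the 1 called higher. Of those 19 differences 11 were above 0, and the median was 0.27. Slc5a5, the iodide transporter, was the called member of 15 milk transport genes (-3.27 ± 0.62, adjusted p = 0.0153), and its other probe set gave -1.09. Hbegf, a growth factor of the ERBB family (-1.48 ± 0.31), and Id1, a target of BMP signalling (-2.60 ± 0.62), were the single calls of 13 ERBB and 25 TGF-beta and BMP genes. The medians of the milk transport, ERBB, and TGF-beta and BMP lists were -0.17, -0.02 and -0.30. Without the day 16 array the adjusted p of Prom1, Slc5a5, Hbegf and Id1 were 0.0568, 0.0674, 0.125 and 0.15, and without 3-week replicate 2 that of Cxcl1 was 0.108.

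Few proliferation and chromatin genes were called. Of 34 cell cycle and DNA replication genes, Pcna, the replication clamp, was called lower (-1.12 ± 0.24, adjusted p = 0.0279, and 0.106 without day 16), and 0 were called higher. Pcna went against most of its list, in which 28 of the 34 differences were above 0 and the median was 0.74. The list mean was 7.81 to 8.04 on the pregnant and 6.60 to 7.735 on the virgin stem arrays. Mki67, a proliferation marker, was 10.19, 8.53 and 8.78 in pregnancy and between 6.43 and 9.06 in virgins, and was not called. Cdkn1b, the inhibitor p27, differed by -0.06 ± 0.24. None of 21 DNA methylation and Polycomb genes was called, with a median of -0.21. The DNA methyltransferases differed by 0.28 ± 0.36 (Dnmt1), -0.13 ± 0.37 (Dnmt3a) and 0.02 ± 0.37 (Dnmt3b), and each of these changed sign under some settings, as did Cdkn1b.

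The 2 virgin ages gave unequal numbers of calls. Against the 3-week arrays 766 genes (4.98%) were called, 239 higher (1.55%) and 527 lower (3.43%). With quantile normalization the split was 368 and 510, and with centred arrays 348 and 413. Against the 9-week arrays 33 genes (0.215%) were called, 4 higher (0.026%) and 29 lower (0.189%), with 1800 at an unadjusted p below 0.05. All 33 were among the 626. The 4 higher genes were Rspo1, Cnmd, Wap (5.40, adjusted p = 0.0166) and Alox12e (5.80, adjusted p = 0.00341). Csn1s1 missed the threshold there (6.14, adjusted p = 0.055). The 29 lower genes included Dmbt1, Fgb, Ido1, Ctse, Lyve1, Olr1, Clec12b, Gpm6a, Col13a1 and Esm1. The 2 comparisons share the 3 pregnant arrays, and the numbers of calls do not show that the ages differ, since that difference was not tested here. With the replicate block 308 genes were called against the 9-week arrays. Without 9-week replicate 1 the count was 2, without the day 16 array 10, without 9-week replicate 2 12 and without day 10 replicate 1 19.

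The same contrast was set beside the luminal cells. Between pregnancy and virgins 551 genes (3.58%) were called in mature luminal cells, 88 higher (0.572%) and 463 lower (3.01%). In luminal progenitors 165 (1.07%) were called, 90 higher (0.585%) and 75 lower (0.488%). Of the 212 genes higher in stem cells, 25 were also higher in mature luminal cells and 17 in luminal progenitors. Of the 414 lower genes, 118 were also lower in mature luminal cells and 42 in luminal progenitors. Rspo1 was higher in all 3 cell types, by 5.06 in mature luminal cells and 4.42 in luminal progenitors, and so was Alox12e, by 4.16 and 5.28. Csn1s1 differed by 9.22 in mature luminal cells and 6.47 in luminal progenitors, and Wap by 6.09 and 6.70, all 4 passing.

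**Figure D5:**
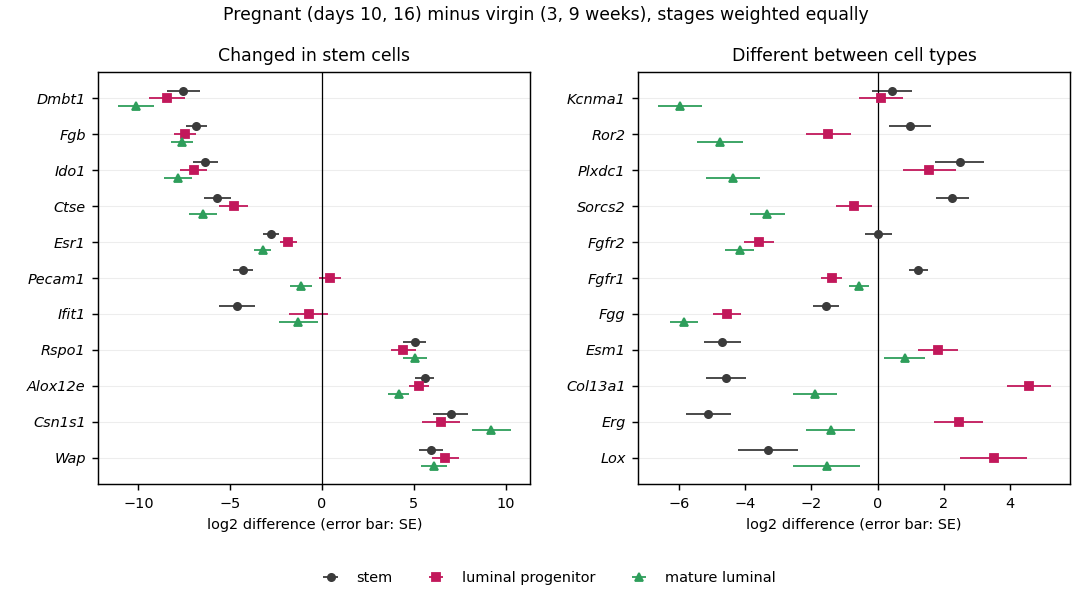
Log2 difference between pregnancy (days 10 and 16) and virgins (3 and 9 weeks), with stages weighted equally, in mature luminal cells, luminal progenitors and stem cells, with bars of 1 standard error. On the left, Dmbt1, Fgb, Ido1 and Ctse are below 0 in the 3 cell types; on the right, Fgfr2 differs by 0.02 in stem cells, -3.59 in luminal progenitors and -4.18 in mature luminal cells.

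The difference between the effects was tested by an interaction. Against mature luminal cells 27 genes (0.176%) passed, 26 with the higher effect in stem cells (0.169%) and 1 with the lower (0.0065%). Fgfr2, a receptor of stromal fibroblast growth factors, was 10.73, 11.15 and 11.32 in pregnant and 10.02 to 12.53 in virgin stem cells. In mature luminal cells it was 10.57, 11.98 and 12.76 in virgins and 5.26, 9.25 and 9.41 in pregnancy, so the groups were apart there. The effects differed by 4.20 ± 0.61 (adjusted p = 0.0279), and against luminal progenitors by 3.61 ± 0.61 (adjusted p = 0.0308). Fgg differed likewise, by 4.30 ± 0.57 and 2.99 ± 0.57 (adjusted p = 0.0279 and 0.0404). Kcnma1, a potassium channel, was between 5.70 and 9.46 on the 7 stem arrays with overlapping groups, and fell by 5.98 in mature luminal cells (interaction 6.42 ± 0.90, adjusted p = 0.0279). Plxdc1 (6.86 ± 1.10), Efcab15 (6.19 ± 0.93), Ror2, a receptor of Wnt ligands (5.76 ± 0.94), and Sorcs2, a sorting receptor (5.60 ± 0.73), were the other largest. Esm1, an endothelial proteoglycan, was the 1 gene in the other direction (-5.51 ± 0.83, adjusted p = 0.028).

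The count of 27 was 1 without either day 10 stem array or without 3-week replicate 2, 2 without 9-week replicate 1 and 4 without 3-week replicate 1, and 439 with the replicate block. With 9-week virgins alone in both cell types, 2 genes passed. The 3-week mature luminal group is a single array. Its 3′ minus 5′ signal of Gapdh was 5.16, the highest of the 23 arrays. On the other mature luminal arrays of these stages that signal was 1.03 to 1.53. The 3-week array held the highest values of Kcnma1 (11.23) and Plxdc1 (7.84) among the mature luminal arrays of these stages. It also held the highest leukocyte list mean, at 9.27 against 4.29 to 7.50 on the others. The part of RNA integrity in the mature luminal effects was not tested.

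Against luminal progenitors 101 genes (0.657%) passed, 6 with the higher effect in stem cells (0.039%) and 95 with the lower (0.618%). Besides Fgfr2 and Fgg, the higher ones named by the rule were Fgfr1 (2.62 ± 0.42, adjusted p = 0.0308), Ccdc136 (2.88 ± 0.53) and C130021I20Rik (2.82 ± 0.53). In the lower direction the largest were Col13a1, a membrane collagen (-9.15 ± 0.90, adjusted p = 0.00531), Erg, an endothelial transcription factor (-7.57 ± 0.99, adjusted p = 0.0121), Ifi204 of the interferon-inducible family (-6.90 ± 1.09), Enpep, an aminopeptidase of pericytes (-6.84 ± 1.23), and Lox, a collagen cross-linker (-6.82 ± 1.36). Erg was between 2.16 and 4.0 in pregnant and 6.82 to 9.58 in virgin stem cells, against 4.59 and 5.81 in pregnant and 0.52 to 4.66 in virgin luminal progenitors. Its difference in stem cells was -4.84, and -3.21 with low values raised. Of the 13 endothelial markers 7 passed this interaction. The fibroblast and stromal list mean was 9.75 and 9.996 on the pregnant luminal progenitor arrays and 6.55 to 8.62 on the virgin ones, and the endothelial mean 7.14 and 7.95 against 5.60 to 7.23. Between pregnant and virgin luminal progenitors the median difference was 3.205 for leukocyte, 2.74 for fibroblast and stromal and 1.89 for basal markers. It was 1.785 for adipocyte, 1.64 for pericyte, 0.80 for endothelial and 0.06 for erythroid markers, and 0.225 over all genes. The part of these lists in the 101 calls was not tested.

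Pregnancy in luminal progenitors was measured on 1 array a stage, and the labelled order of the stages was not that of the other cell types. Wap was 12.74 on the array labelled day 10 and 6.94 on that labelled day 16, while it was higher on day 16 in stem and in mature luminal cells. With day 10 alone or day 16 alone in both cell types, 0 genes passed. Without 3-week stem replicate 2 the count of 101 was 2, without day 10 replicate 1 12, without 9-week replicate 2 16, without 3-week replicate 1 20 and without 9-week replicate 1 30. With the replicate block it was 458.

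Some calls held throughout. Of the 81 called genes named here, 30 were called whichever of the 7 stem arrays was left out, and 9 under each of the 24 alternatives that gave a test. These 9 were Dmbt1, Fgb, Clec12b, Gpm6a, Col13a1 and Esm1 among the lower genes and Alox12e, Cnmd and Rspo1 among the higher ones. Within the arrays titled replicate 1, which are 1 pregnant and 2 virgin stem arrays, all 626 called genes had the same sign, and so they did within the other 4 arrays. These are the arrays that made the calls, so the signs are a description.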

How the data were processed

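The authors deposited log2 expression values of 45101 probe sets on 23 arrays, with values from 0 to 14.28. The software and settings that summarised and scaled them are not given in the sources used here, and 1.379 to 1.922% of the probe sets of a stem array were at 0. GEO's platform annotation gave 34958 probe sets 1 gene symbol, 932 several and 9211 none. They named 18194 genes, 9012 of them with several probe sets, and each was read from its probe set of highest mean. Genes above the 40th percentile of an array on at least 2 arrays were kept, which left 15379. No column belonged to an unmapped sample (0 columns).

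A linear model with 1 mean for each of the 16 groups of cell type and stage was fitted in limma 3.58.1 (R 4.3.3), by lmFit and then eBayes with an intensity trend, over the 23 arrays, with 7 residual and a median of 4.74 prior degrees of freedom. All adjusted p-values are from this fit or its alternatives, with Benjamini-Hochberg adjustment over all genes kept, and are two-sided. The mean of the 3 pregnant arrays was set against the mean of the 4 virgin arrays. In comparisons with luminal cells, stages were weighted equally. The fit was tested on simulated data with independent noise. Those data held no deviation shared by replicate number, so that test could not show the effect of one.

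Replicate numbers come from the sample titles. Over 21 pairs of groups, the deviations of same-numbered arrays from their group means correlated at 0.303 to 0.682 (median 0.470), all above 0.1, and at 0.331 to 0.540 in the 3 pairs of stem groups. The 8 unnumbered arrays were each closer to replicate 2, so the block with those arrays placed there rests on the data and not on the titles.

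The comparison and the gene lists were chosen with earlier results of these data known. Genes were named by rule: the 12 largest increases and decreases among called genes whose arrays do not overlap, the 5 largest of each interaction in each direction, at most 4 genes per list, taken by lowest p, and some fixed markers. Other called list members, most of them endothelial or interferon genes, and genes singled out for the 9-week comparison, were named after their values were seen. Alternatives changed the scaling, the filter, the probe set rule, the model, the virgin age, the pregnancy day and the arrays included. Promoters came from RefSeq.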

Additional observations from a re-analysis of the deposited data

Results flagged for a closer look

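The pregnancy effect of these genes differed between stem and mature luminal cells by a test of the difference itself, with values on the log2 scale of the stem effect minus the mature luminal effect. The stem effect was higher for Plxdc1 (6.86), Kcnma1 (6.42), Efcab15 (6.19), Ror2 (5.76), Sorcs2 (5.60), Fgg (4.30), Fgfr2 (4.20), C130021I20Rik (3.57) and Ccdc136 (3.17), and lower for Esm1 (-5.51).

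Against luminal progenitors the same test gave a higher stem effect for Fgfr2 (3.61), Fgg (2.99), Ccdc136 (2.88), C130021I20Rik (2.82) and Fgfr1 (2.62). It gave a lower stem effect for Col13a1 (-9.15), Erg (-7.57), Ifi204 (-6.90), Enpep (-6.84), Lox (-6.82), Ly6i (-6.60), Esm1 (-6.52), Clec12b (-5.11), Notch4 (-5.07), Nid2 (-4.83), Olr1 (-4.70), Zeb1 (-4.23) and Fabp4 (-4.12). The endothelial markers among them were Tek (-6.46), Sox17 (-5.80), Emcn (-5.65), Esam (-4.77), Pecam1 (-4.72), Tie1 (-4.72) and Plvap (-4.16). Fibroblast and endothelial list means were higher on the 2 pregnant luminal progenitor arrays than on most virgin ones. Leukocyte, basal, adipocyte and pericyte markers also had median differences there above that of all genes. The part of these lists in the values above was not tested.

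One of the 4 virgin stem arrays stood apart from the other 3 for 5 of 100 genes examined (5%), by a gap to the nearest array that took more of the group's range than Dixon's critical value allows. The shares were 0.91 for Cldn5, 0.891 for Inpp5d, 0.857 for Pgr, 0.836 for Fgg and 0.833 for Fasn. Chance flags about 5% of such groups.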

How the results depend on the processing

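The 626 calls between pregnant and virgin stem cells ranged from 161 to 935 when 1 array was left out. They numbered 361 and 365 in fits on the 7 stem arrays with 4 or 2 means, 1306 with a replicate block on the numbered arrays, 2113 with the block on all arrays, 47 within replicate 2 and day 16, 33 against 9-week virgins alone, 262 with day 10 alone and 98 with day 16 alone. The other settings gave 539 to 787. Against 3-week virgins the count of 766 ranged from 67 to 876 with 1 array left out and was 466 in the stem-only fit, and 1581 and 2151 with the replicate block. Against 9-week virgins the count of 33 ranged from 2 to 24, and was 21 with centred arrays, 109 with low values raised to their array's median, 0 in the stem-only fit, and 168 and 308 with the block. Day 16 against day 10 gave 8 genes with low values raised. The interaction with mature luminal cells (27) ranged from 1 to 33 with 1 array left out, and was 9 with centred arrays, 142 with low values raised, 439 with the block and 2 with 9-week virgins only. That with luminal progenitors (101) ranged from 2 to 72, and was 269 with low values raised, 458 with the block, and 0 with day 10 or day 16 alone. The cause of these changes was not tested, and the smaller fits also hold fewer arrays.

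Members called in the 4 main lists moved as follows. The 12 endothelial markers became 2 within replicate 2 and day 16, 0 against 9-week virgins and 1 with day 16 alone. The 9 interferon genes became 1, 0 and 0. The 4 milk protein genes became 8 with the block on all arrays, 2 without an intensity trend, 2 and 1 against 3-week and 9-week virgins alone, and 1 and 2 with day 10 and day 16 alone. The 4 Wnt genes became 2 in both stem-only fits, 7 with the block, 1 within replicate 2 and day 16, 1 against 9-week virgins and 2 with day 16 alone.

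Some values that were never called changed sign. With 1 array left out, Cdkn1b ranged from -0.15 to 0.0225, Dnmt1 from -0.29 to 0.73, Dnmt3a from -0.37 to 0.087, Dnmt3b from -0.50 to 0.55 and Krt18 from -0.42 to 0.090. Cdkn1b was 0.082 with quantile normalization, 0.092 with centred arrays and 0.077 against 9-week virgins. Dnmt3a was 0.026 with centred arrays, 0.073 against 3-week virgins and 0.16 with day 16 alone. Dnmt3b was -0.24 with stages weighted equally, -0.33 within replicate 2 and day 16, -0.22 against 9-week virgins and -1.02 with day 16 alone. Dnmt1 was -0.015 within replicate 2 and day 16 and -0.62 with day 16 alone. Krt18 was 0.27 within replicate 2 and day 16. Lgr5 was -0.27 with low values raised and -1.76 within replicate 2 and day 16, and Igf1r 0.0065 with the mean of all probe sets.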

Other observations

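The stem preparation of a retired breeder was measured on 1 array and entered no comparison between pregnant and virgin stem cells. On it Alox12e was 7.80 and Rspo1 7.82, both nearer to the pregnant than to the virgin stem arrays. Csn1s1 was 9.78 and Csn2 10.98. Of the 212 genes called higher in pregnancy, 135 were nearer to the pregnant mean on that array. Of the 414 genes called lower, 270 were nearer to the virgin mean, among them Dmbt1 (10.52), Fgb (10.09), Ido1 (10.69) and Esr1 (10.85). The median gene lay 58.5% of the way from the virgin to the pregnant mean among the higher genes and 40.1% among the lower ones. The 3′ minus 5′ signal of Gapdh was 3.77 on that array, above the 7 stem arrays compared. The endothelial list mean was 8.55 and the interferon list mean 7.99.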
